A study of Mus musculus with 6 samples.

Results

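The cytosolic ribosomal protein genes were followed in livers of mice carrying floxed Mettl3 alleles and of mice with a hepatocyte-specific Mettl3 knockout. They were taken by symbol and biotype: protein-coding genes named Rpl or Rps with a number, together with Rplp0, Rplp1, Rplp2 and Rpsa, leaving out the Rps6 kinases. This gave 83 genes of 54086 features, of which 22058 are protein-coding. The large (60S) subunit accounts for 51 of them and the small (40S) subunit for 32. Fau, which encodes a ribosomal protein fused to a ubiquitin-like sequence, carries another symbol and is no member.

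Cytosolic ribosomes pair a large subunit, which forms peptide bonds, with a small subunit, which decodes the mRNA. Their proteins are made in near-equal numbers in every cell and are assembled with ribosomal RNA in the nucleolus. Many of these mRNAs begin with a 5′ terminal oligopyrimidine (TOP) tract, through which growth signals relayed by mTORC1 and the RNA-binding protein LARP1 control their translation and stability. Liver makes plasma proteins in bulk and holds many ribosomes. Free ribosomal proteins, above all Rpl5 and Rpl11, can bind MDM2 and so stabilise p53.

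The 6 libraries were 3 labelled Mettl3 flox/flox (the controls) and 3 labelled HKO, the hepatocyte-specific knockout, each 3 numbered as replicates 1 to 3. All mice were 8 weeks old and fed normal chow, and poly(A) RNA of flash-frozen whole liver was sequenced as paired-end reads. Cre recombinase removes the stretch between the sites placed in a floxed allele. The sources used here do not give the Cre driver, the deleted exons or the sex of the mice, and cells other than hepatocytes keep the gene by design. Whether the 3 replicates of a group are different mice is not stated, so every p-value reflects only how far the libraries spread, which may be technical.

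Whole reads rebuilt from the deposited FPKM (fragments per kilobase of gene, scaled for sequencing depth by the authors) came to 16529358 to 18556076 per library. Mettl3 itself stood at 1.88, 2.17 and 1.98 FPKM in the libraries labelled flox/flox and at 2.45, 2.14 and 2.06 in those labelled HKO. Its gene-level value therefore does not separate the labels, and the groups are named by label throughout. Hepatocyte markers were far above those of other cells in every library, with Alb at 9905 to 50179 FPKM. Summed over 10 macrophage markers, flox/flox replicates 1 to 3 held 258, 67.1 and 155 FPKM and the HKO replicates 354, 446 and 446, none of the markers at 0. The 20 features with the most reads held 26.9%, 23.1% and 22.8% of reads in flox/flox and 22.1%, 22.5% and 18.7% in HKO.

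The starts of ribosomal protein genes are shown for some of the members that the results return to, since the TOP tract lies there. The choice was not even, and most of those shown hold a tract. RefSeq promoter entries (GRCm38.p6) matched 63 of the 83 genes in 75 entries. A tract was searched as a C followed by at least 4 bases of C or T on the gene's strand, beginning within 5 bases of the annotated start. It was found in 31 of 75 entries (41.3%), against 17.1% of all 32851 promoter entries. Each sequence runs 30 bases before to 30 bases after the start, 5′ to 3′ on the gene's strand, with the tract in capitals.
Rplp2: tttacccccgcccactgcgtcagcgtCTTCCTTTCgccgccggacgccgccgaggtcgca
Rpl12: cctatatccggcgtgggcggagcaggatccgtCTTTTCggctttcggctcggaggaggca
Rps6: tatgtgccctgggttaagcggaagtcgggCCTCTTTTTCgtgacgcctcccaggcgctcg
Rps27: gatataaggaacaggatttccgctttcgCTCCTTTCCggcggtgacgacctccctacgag
Rps27l: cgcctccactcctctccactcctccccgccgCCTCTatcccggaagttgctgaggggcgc
Rpl7l1: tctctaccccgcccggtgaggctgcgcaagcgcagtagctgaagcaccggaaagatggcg
These windows lie at chr7:141447621-141447680 (plus strand) for Rplp2, chr2:32961682-32961741 (plus) for Rpl12, chr4:86857338-86857397 (minus) for Rps6 and chr3:90213619-90213678 (minus) for Rps27. Those of the paralogs lie at chr9:66946056-66946115 (plus) for Rps27l and chr17:46782627-46782686 (minus) for Rpl7l1. Rpl7l1, a paralog of Rpl7, holds no tract at its start by this search, which says nothing of its use. Nor was a tract found for Rps12, Rplp0, Rpl4, Rpl5 and Rpl11, core members whose windows are not shown. The letters CCGGAA, on either strand of the 300 bases listed (250 before to 50 after the start), were in 48.0% of member entries and 14.9% of all entries. AAGATGGC was in 10.7% against 2.75%, and TATAAA in 9.33% against 13.6%.

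Ribosomal protein mRNAs were among the more abundant of the liver. By mean over the 6 libraries, 35 genes stood at 100 FPKM or more, 41 between 10 and 100 and 3 between 1 and 10. The median was 76.8 FPKM over the large-subunit genes and 119.8 FPKM over the small-subunit genes, beside 5.34 FPKM over the 11086 features that averaged 1 FPKM or more. These are levels per gene length.

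Rplp1, an acidic protein of the ribosomal stalk, was the most abundant member in every library, at 799, 616 and 627 FPKM in the controls and 976, 821 and 1040.1 in HKO. Rps3a1, near the mRNA exit of the small subunit, led the small-subunit genes at 288 to 411 FPKM. Rps15, Rps2, Rplp0, Rpl4, Rpl36 and those 2 genes were among the 10 highest members in all 6 libraries. The order of the 83 levels was nearly the same everywhere, with Spearman correlations of at least 0.976 between any 2 libraries, which share gene lengths and counting. The large subunit's summed FPKM was 1.31, 1.38 and 1.39 times that of the small subunit in flox/flox and 1.43, 1.37 and 1.42 times in HKO, so the ratio of the subunits overlapped between the groups.

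At the other end, Rpl10l and Rpl39l, paralogs known from testis, had no reads in any library. Rpl3l, the paralog of heart and skeletal muscle, was at 0 to 0.278 FPKM. Rpl24 stood at 0.443 to 1.58 FPKM, far under the other core members. Its exons share 484 bases with an overlapping annotated gene, Gm28037, and the sources used here do not say how shared reads were counted. These 4 genes were under the filter and were not tested, which left 47 large-subunit and 32 small-subunit genes.

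Under the deposited scaling, 0 of 47 large-subunit genes and 0 of 32 small-subunit genes passed the test in either direction (limma on log2(FPKM + 1), Benjamini-Hochberg adjusted p under 0.05 over all features), while 12.8% of all features tested passed it. At an unadjusted p under 0.05, 6 of the 79 genes passed, and 33.8% of all features did. Limma-voom on the rebuilt reads called 2 of the 79, Rpl17 and Rps12, both higher in libraries labelled HKO, where it called 6.53% of all features higher. The 95% interval of the fold change included 0 for 73 genes, and its median half-width was 0.41 on the log2 scale.

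Most estimates lay on 1 side. The log2 fold change, HKO minus flox/flox, was above 0 for 34 of 47 large-subunit genes and for 29 of 32 small-subunit genes. Its median was 0.12 in the large and 0.19 in the small subunit, beside -0.06 over all features tested. No count here is a test of the group, since the 79 genes share the libraries and deviate together.

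**Figure D1:**
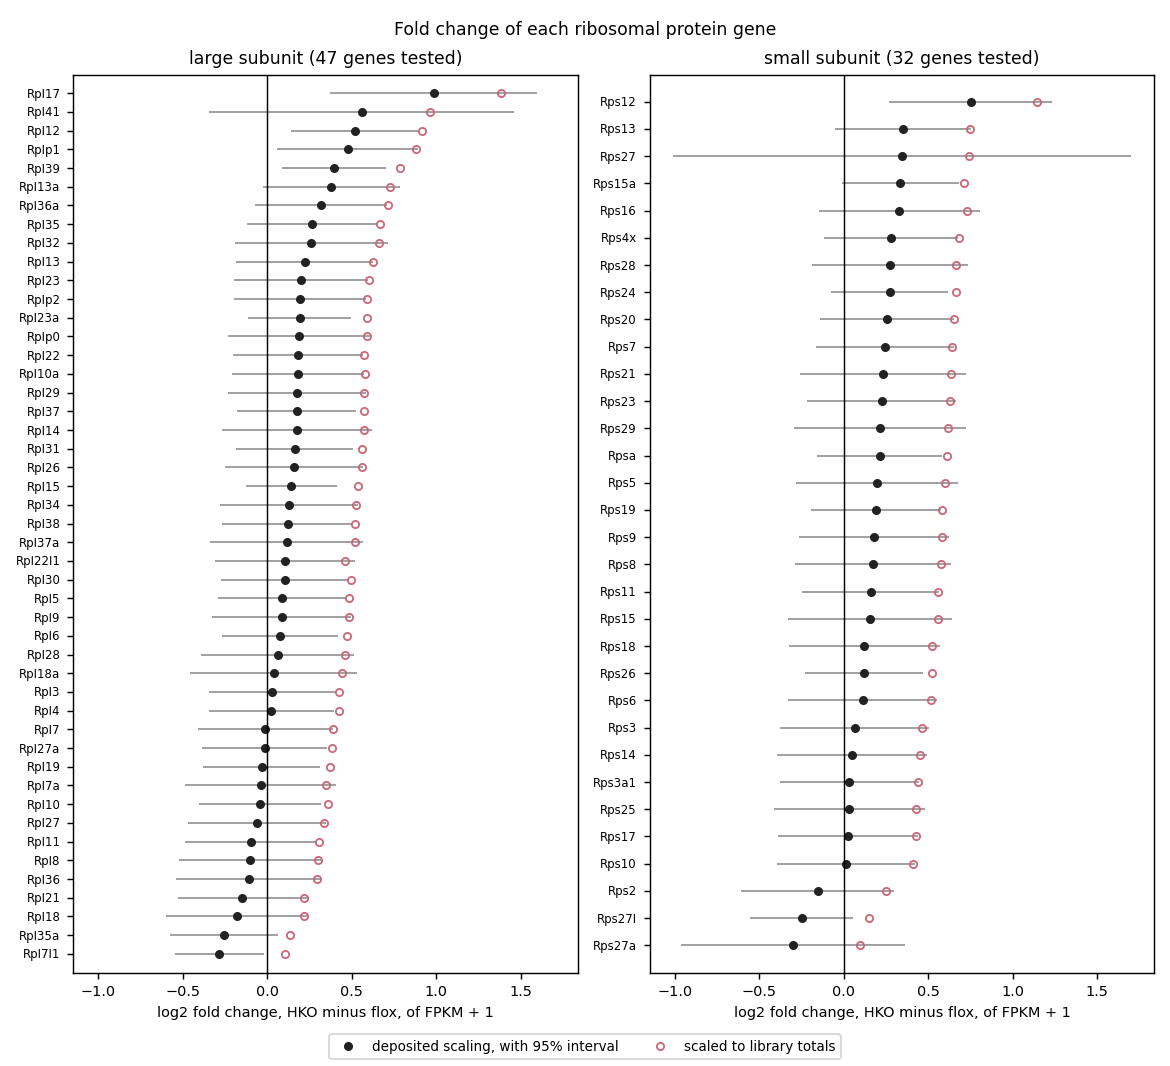
Log2 fold change (HKO minus flox/flox, log2 of FPKM + 1) of each tested gene of the large (left) and small (right) subunit, as black points with 95% intervals under the deposited scaling and as open red points with scaling to library totals, 3 libraries per group. The black points range from -0.30 (Rps27a) to 0.99 (Rpl17) and most intervals cross 0, and every red point lies above 0.

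The members deviated together from library to library. Flox/flox replicate 1 held the highest value of its group for 77 of the 79 genes (97.5%), against 43.5% of all features tested. The median deviation from each gene's own mean was 0.21 (large) and 0.25 (small) on the log2 scale in that library. It was -0.19 and -0.26 in flox/flox replicate 2 and -0.19 and -0.22 in replicate 3. The libraries labelled HKO stood between, at 0.09 and 0.10 in replicate 1, -0.07 and -0.04 in replicate 2, and 0.16 and 0.18 in replicate 3. Over all features tested the same medians stayed between -0.03 and 0.04.

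Flox/flox replicate 1 was also the highest of its group in summed hepatocyte markers, at 80503 FPKM against 50946 and 52726, and in summed macrophage markers. The part of these in the ribosomal protein values was not tested. Without that library the medians were 0.24 and 0.34. Limma then called 3 large-subunit genes (Rpl17, Rpl12 and Rpl36a) and 1 small-subunit gene (Rps12) higher, beside 6.48% of all features called higher. Without flox/flox replicate 2 the medians were 0.06 and 0.08, and without replicate 3 they were 0.07 and 0.10. No member was called in either, where 1.85% and 0.15% of all features were called higher. Flox/flox replicate 1 was the highest of its group for most members, so leaving it out raises their estimates by construction. All 3 libraries labelled HKO lay above both flox/flox replicates 2 and 3 for 59 of 79 genes, against 23.7% of all features. Those were the libraries where most members stood lowest, so the choice of libraries in part sets this count. With all 6 libraries 5 of 79 genes had every HKO value above every flox/flox value, against 16.8% of all features.

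**Figure D2:**
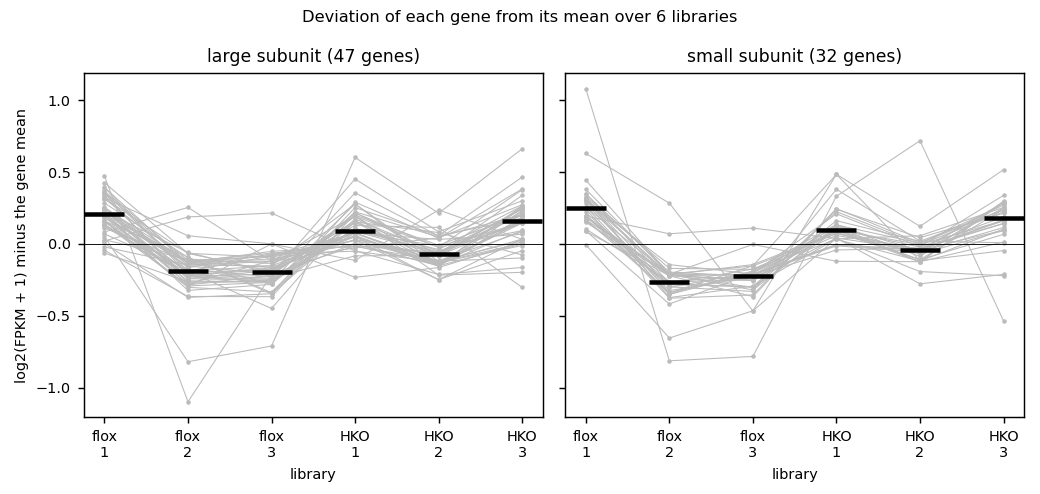
Deviation of each gene's log2(FPKM + 1) from its mean over the 6 libraries, for 47 large-subunit (left) and 32 small-subunit genes (right); grey lines join the values of a gene and black bars are library medians. The genes move together, with flox/flox replicate 1 high (medians 0.21 and 0.25) and replicates 2 and 3 low.

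With all 6 libraries and the deposited scaling, 5 genes had every HKO value above every flox/flox value (16.8% of all features did) and 2 had every HKO value below (24.7% of all features). The 5 were Rpl17, Rps12, Rpl12, Rplp1 and Rpl39. The 2 were Rpl7l1 and Rps27l, both paralogs of core members.

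The number of members called depended on the scaling. The members' share of all reads was 1.37%, 1.15% and 1.15% in flox/flox replicates 1 to 3 (1.22 ± 0.130%, SD, n = 3) and 1.78%, 1.52% and 2.02% in HKO (1.77 ± 0.248%). The groups did not overlap in this share. Nor did they in the share of mitochondrial ribosomal protein genes (0.181% to 0.205% in flox/flox, 0.225% to 0.283% in HKO). The same held for features named as copies of the members (0.064% to 0.071% in flox/flox, 0.078% to 0.115% in HKO). The members' summed FPKM, by contrast, was 10704, 7593 and 7805 in flox/flox and 9820, 8676 and 10206 in HKO. In that sum flox/flox replicate 1 was the highest of all 6 libraries. The deposited FPKM were divided by a size factor between 0.858 and 0.892 (flox/flox) or between 1.06 and 1.30 (HKO), in place of each library's total.

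**Figure D3:**
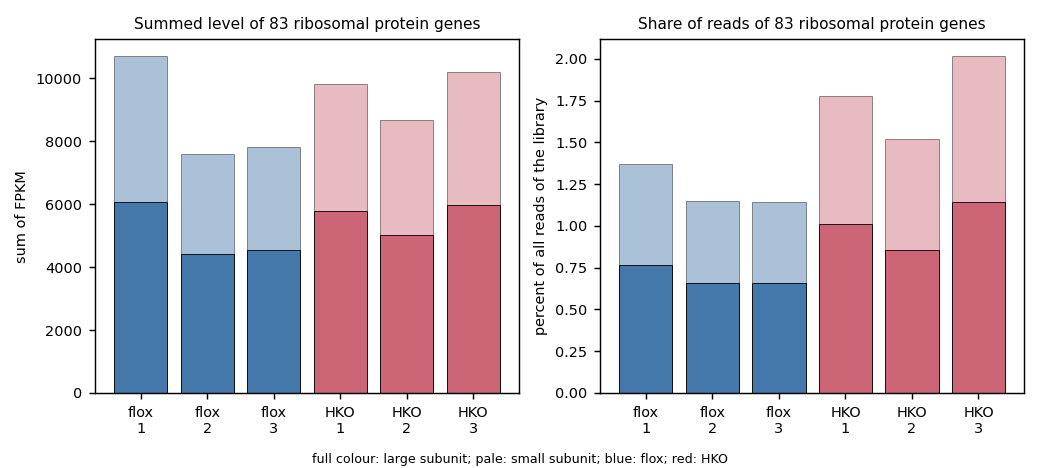
Summed FPKM (left) and percent of all reads (right) of the 83 genes in each library, with the large subunit in full colour and the small subunit pale, flox/flox in blue and HKO in red. The summed FPKM of the groups overlap, from 7593 to 10704, while the share runs from 1.15% to 1.37% in flox/flox libraries and from 1.52% to 2.02% in HKO libraries.

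Scaled to library totals, limma called 21 of 47 large-subunit and 15 of 32 small-subunit genes higher in libraries labelled HKO and none lower, where 19.2% of all features were called higher. The medians were then 0.52 and 0.58, and the median of all features tested moved from -0.06 to 0.26. Relative to that median the members stood 0.26 and 0.32 higher, against 0.18 and 0.25 under the deposited scaling. On this scale 64 of 79 genes had every HKO value above every flox/flox value, against 42.1% of all features, and 0 had every value below. Quantile normalization called 9 large-subunit and 5 small-subunit genes higher, beside 5.86% of all features. In bulk liver, fewer cells of a type and less RNA per cell cannot be told apart. The share of reads on the 20 highest features, given above, also moved with the labels, and its part in the members' share was not tested.

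The P stalk recruits the GTPase elongation factors. All 4 of its genes had estimates above 0 and none passed the test, with a median of 0.34. Rplp1, whose values are given above, had a log2 fold change of 0.48 (SE 0.17, limma adjusted p = 0.110), and its groups did not overlap. Rpl12, at the stalk base, stood at 47.3, 37.6 and 37.6 FPKM in flox/flox and 58.3, 50.8 and 67.8 in HKO, a log2 fold change of 0.52 (SE 0.16, limma adjusted p = 0.0731). Its lowest HKO library was above the highest flox/flox library. Rplp0, the scaffold of the stalk, was at 345, 255 and 248 FPKM against 319.7, 287 and 354, and the groups overlapped (0.19, SE 0.18, limma adjusted p = 0.488). Rplp2, the partner of Rplp1, also overlapped, at 40.4, 34.1 and 30.5 FPKM against 45.4, 33.4 and 42.0 (0.20, SE 0.16). Scaled to library totals, limma called all 4 stalk genes higher, beside 36 of all 79 tested members and 19.2% of all features.

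Of the 9 genes around the exit of the nascent peptide, 8 had estimates above 0 and none passed. Rpl17, which lines the tunnel (ENSMUSG00000062328, GRCm38.p6 chromosome 18, 75000477 to 75003381, plus strand), had the largest estimate of all members. Its values were 49.3, 26.5 and 28.7 FPKM in flox/flox against 72.7, 55.3 and 75.8 in HKO, a log2 fold change of 0.99 (SE 0.26, limma adjusted p = 0.0513). All HKO values were above all flox/flox values, and flox/flox replicate 1 came nearest to them.

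Reads of Rpl17 may have been split between the gene and near-identical copies, so its value is uncertain. The table holds 10 features named as copies of it, among them the processed pseudogene Rpl17-ps10, and these took most of the family's reads in every library. Of the reads on the gene and copies together, the gene held 15.4%, 11.6% and 11.4% in flox/flox and 26.7%, 19.9% and 22.8% in HKO. Copies stood at 179.7 ± 27.0 RPM (reads scaled for depth by the deposited factors) in flox/flox and 175 ± 22.5 in HKO. With their reads added, the log2 fold change of Rpl17 was 0.15 (limma adjusted p = 0.588).

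Rpl39, a small protein of the same tunnel, stood at 42.1, 36.5 and 36.5 FPKM in flox/flox and 56.6, 45.8 and 49.9 in HKO without overlap (0.39, SE 0.13, limma adjusted p = 0.0872). Rpl4, which reaches into the tunnel and is among the most abundant members, was at 334, 265 and 266 FPKM against 295, 263 and 320.1. Its groups overlapped and the estimate was 0.02 (SE 0.15, limma adjusted p = 0.930). The remaining tunnel genes, Rpl19, Rpl22, Rpl23a, Rpl26, Rpl31 and Rpl35, ranged from -0.03 to 0.27.

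Around the peptidyl transferase centre, where peptide bonds form, estimates were split. Rpl3 was at 0.03, while Rpl10 was at -0.04 and Rpl8 at -0.10. Rpl10a, which was listed with these genes but does not lie at that centre, was at 0.18. None of them passed the test. Rpl41, the smallest ribosomal protein, had the second largest estimate of the large subunit but the widest spread, at 360.2, 120.4 and 223 FPKM in flox/flox and 355, 275 and 319 in HKO (0.56, SE 0.38, limma adjusted p = 0.340). Its flox/flox values spread over more than the HKO values, which lay inside that range.

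Rps12, a protein of the beak of the small subunit (ENSMUSG00000061983, chromosome 10, 23785183 to 23787275, minus strand), had the largest small-subunit estimate. Its values were 38.2, 24.0 and 27.5 FPKM in flox/flox and 54.1, 41.9 and 55.3 in HKO, a log2 fold change of 0.75 (SE 0.20, limma adjusted p = 0.0559). The groups did not overlap. Unlike Rpl17, Rps12 held most of the reads of its family, 74.0% to 79.1% in flox/flox libraries against 78.2% to 86.3% in HKO. With the reads of its 23 copies added the estimate was 0.67 (limma adjusted p = 0.0658).

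Rps13 and Rps15a, which bind ribosomal RNA in the body of the small subunit, followed with 0.35 (SE 0.17, limma adjusted p = 0.194) and 0.33 (SE 0.15, limma adjusted p = 0.160). Rps13 was at 32.5, 22.5 and 26.3 FPKM in flox/flox and 35.3, 30.01 and 38.7 in HKO. Rps15a was at 16.4, 13.0 and 11.7 FPKM against 18.4, 15.9 and 18.0. In both genes flox/flox replicate 1 lay above the lowest HKO library and flox/flox replicates 2 and 3 lay below all 3.

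Rps27 had a wide spread in both groups, at 106, 27.9 and 28.5 FPKM in flox/flox and 63.0, 82.7 and 34.1 in HKO (0.34, SE 0.57, limma adjusted p = 0.710). Its retrotransposed copy Rps27rt was low where Rps27 was high and high where it was low, at 85.8, 197 and 191 FPKM in flox/flox and 124, 66.9 and 271 in HKO. The share of the family's reads on Rps27 ran from 26.0% to 77.6% and overlapped between the groups. Together the gene and its copies came to 143, 103 and 101 RPM in flox/flox and 112, 111 and 137 in HKO. The sum varied far less than either feature, and with the copies' reads added the estimate was 0.07 (limma adjusted p = 0.828).

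**Figure D4:**
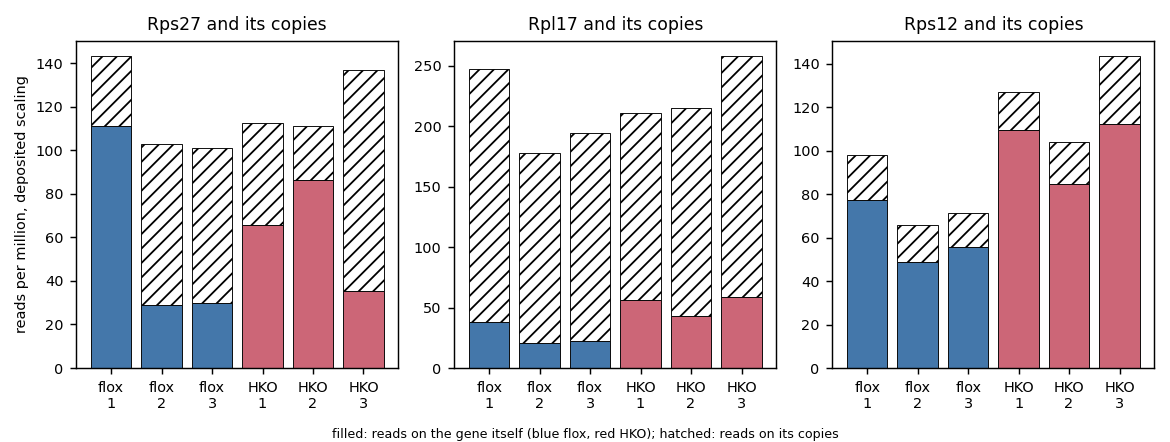
RPM (deposited scaling) on Rps27, Rpl17 and Rps12 (filled, blue flox/flox, red HKO) and on features named as their copies (hatched), stacked for each library. The gene's share of its family runs from 26.0% to 77.6% for Rps27 and from 11.4% to 26.7% for Rpl17, and stays between 74.0% and 86.3% for Rps12.

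Of 8 genes along the mRNA channel and decoding centre, 7 had estimates above 0 (median 0.16) and none passed. Rps28 was highest at 0.27. Rps2, at the mRNA entry and among the most abundant, was the exception at 342, 216 and 250.3 FPKM in flox/flox and 231, 230.1 and 253 in HKO (-0.15, SE 0.19, limma adjusted p = 0.612). Its groups overlapped, and without flox/flox replicate 1 the estimate was 0.03. Rps15, in the head near the decoding site, was at 345, 221 and 244 FPKM against 299.9, 259 and 331 (0.15, SE 0.20). Rps3a1 was at 411, 301 and 288 FPKM against 332, 324 and 356 (0.03, SE 0.17), and both overlapped between the groups.

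Rps6, the substrate of the S6 kinases downstream of mTORC1, was at 251, 174 and 169.97 FPKM in flox/flox and 209, 197 and 228 in HKO. The estimate was 0.11 (SE 0.18, limma adjusted p = 0.709), with all 3 HKO values inside the flox/flox range. Of the MDM2 binders, Rpl5 was at 81.2, 62.1 and 59.8 FPKM against 68.6, 66.5 and 79.9 (0.09), Rpl11 at 97.6, 69.5 and 72.1 against 80.3, 70.1 and 71.2 (-0.10), and Rpl23 at 90.2, 70.2 and 70.8 against 94.0, 74.3 and 97.8 (0.20). None passed and all 3 overlapped.

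The estimates below 0 were few. Rps27a, which is made as a fusion to ubiquitin, had the lowest, at 73.8, 57.8 and 33.9 FPKM in flox/flox and 48.7, 38.8 and 40.7 in HKO (-0.30, SE 0.28, limma adjusted p = 0.488). The HKO values lay inside the flox/flox range. Fau, no member by the rule, was at 251 ± 39.7 against 236 ± 16.7 FPKM (-0.08, SE 0.16, limma adjusted p = 0.761) and did not pass.

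Rpl7l1 stood at 24.2, 27.3 and 27.9 FPKM in flox/flox and 23.0, 20.5 and 21.2 in HKO (-0.28, SE 0.11, limma adjusted p = 0.130), and Rps27l, the paralog of Rps27 known as a p53 target in human cells, at 185, 169.6 and 174 FPKM against 166, 141 and 138 (-0.25, SE 0.13, limma adjusted p = 0.22). In both, every HKO value lay below every flox/flox value. Rpl7l1 and Rpl21 were the members for which flox/flox replicate 1 was not the highest of its group. Rpl22l1, the paralog of Rpl22, was at 9.46, 7.04 and 5.75 FPKM against 8.55, 8.07 and 7.14 (0.10).

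Among core members Rpl35a was at 34.0, 28.1 and 27.0 FPKM in flox/flox and 22.8, 24.0 and 27.3 in HKO (-0.25, SE 0.13, limma adjusted p = 0.231). Rpl18 was at 66.4, 46.9 and 46.1 FPKM against 50.1, 41.2 and 47.6 (-0.18, SE 0.18). Rpl21 was at 10.4, 11.8 and 8.87 FPKM against 11.3, 8.22 and 8.34 (-0.15, SE 0.16), and the gene held 40.9% to 61.7% of the reads of its family with 15 copies. All 3 overlapped between the groups. The signs of these estimates, and of those of Rps27a, Rps27l, Rpl7l1, Rpl11 and Rps2, turned positive when scaled to library totals (0.10 to 0.30).

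To compare the members among themselves, the libraries were scaled on the ribosomal protein genes alone, an alternative added after the data were seen. The medians were then -0.01 and 0.05 by construction. Limma called Rpl17 (0.85, adjusted p = 0.0315) and Rps12 (0.62, adjusted p = 0.0488) higher and no other member, where 3.1% of all features were called higher. The lowest estimates on this scale were Rps27a (-0.43), Rpl7l1 (-0.42), Rps27l (-0.39) and Rpl35a (-0.39), none of which passed. With the reads of its copies added, and the deposited scaling, Rpl17 was not called, as given above.

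Members were also set apart by features the rule did not use. The 30 genes that hold an annotated small nucleolar RNA within them had a median log2 fold change of 0.17, and the 49 others 0.14. Genes with a tract found by the search above (29 tested) had a median of 0.13, and those with a promoter entry where it found none (30 tested) 0.18. The search depends on the annotated start, so it does not sort TOP mRNAs from others. Genes of at most 1500 bases of gene length (26) had 0.18 and longer ones (53) 0.12. The widest gap was for CCGGAA, with 0.12 over 34 genes whose promoter entries hold it and 0.20 over 25 whose entries do not. The ranges overlapped in each of these pairs. The members lie on 19 chromosomes, 61 have at least 1 named copy in the table, and 22 share exonic bases with another annotated gene.

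Other TOP mRNAs were set beside the members, since they share the tract and its control. Of 20 such genes, 0 were called in either direction by limma (2 at an unadjusted p under 0.05), beside 12.8% and 33.8% of all features. Their median was -0.09, with 8 estimates above and 12 below 0. With library totals it was 0.31 with 3 genes called higher, beside a median of 0.26 and 19.2% called higher over all features. Eef1a1, the elongation factor that brings aminoacyl-tRNA, was the most abundant, at 1859 ± 327 FPKM in flox/flox against 1935 ± 203 in HKO (0.07, SE 0.18). The summed level of the 20 was highest in flox/flox replicate 1 as well, at 4385 FPKM against 3280 and 3337 in the other flox/flox libraries and 3454, 3482 and 4037 in HKO.

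Under the deposited scaling, where 5.95% of all features were called higher and 6.86% lower, few of the genes that build ribosomes passed the test. Of 33 assembly factors of the large subunit, limma called 1, the export adaptor Nmd3, lower (3.67 ± 0.343 against 2.39 ± 0.117 FPKM, -0.46, adjusted p = 0.0381) and none higher. Of 35 factors of the small subunit it called Rcl1 lower (147 ± 26.5 against 86.6 ± 8.42 FPKM, -0.75, adjusted p = 0.0388) and none higher. Of 15 genes of RNA polymerase I and its factors, Rrn3, which couples the enzyme to the ribosomal RNA promoter, fell (6.70 ± 0.612 against 4.18 ± 0.505 FPKM, -0.57, limma adjusted p = 0.0322). Of 11 nucleolar genes Gnl3, encoding nucleostemin, fell (-0.59, limma adjusted p = 0.0278), and of 5 chaperones of ribosomal proteins Heatr3 fell (-0.37, limma adjusted p = 0.0444). None of the 10 snoRNP core genes was called by limma, with 2 at an unadjusted p under 0.05, and Nop10 was the most abundant at 35.8 ± 1.37 against 30.7 ± 0.279 FPKM. None of these 5 falls passed with scaling to library totals. Limma then called 11 genes of these 6 lists higher and none lower, beside the 19.2% of all features called higher on that scale.

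Of 19 genes of mTORC1, LARP1 and MYC control, limma called Rps6kb1, an S6 kinase, lower (5.03 ± 0.455 against 3.46 ± 0.342 FPKM, -0.44, adjusted p = 0.0493). Of 12 tested genes of p53 control and its targets, Phlda3 (0.762 ± 0.286 against 5.06 ± 0.845 FPKM, 1.78, limma adjusted p = 0.00871) and Ccng1 (8.83 ± 1.55 against 15.3 ± 3.17 FPKM, 0.72, limma adjusted p = 0.0484) were called higher and none lower. In this list 10 estimates were above and 2 below 0, the lowest that of Rps27l (-0.25), whose values are given above. Of 11 genes of ribosome rescue, Zfp598 (-0.48, limma adjusted p = 0.0491) and Habp4 (-0.54, limma adjusted p = 0.0437) fell. With scaling to library totals the rises of Phlda3 and Ccng1 passed (adjusted p = 0.00531 and 0.0232, limma), and the falls of Rps6kb1, Zfp598 and Habp4 did not. Rps4l, a copy of Rps4x annotated as a transcribed processed pseudogene and so no member, rose from 13.9 ± 2.03 to 23.5 ± 3.86 FPKM (0.72, limma adjusted p = 0.04). The lists were written with results of these data known. Of these 11 calls in the related lists, 5 remained without flox/flox replicate 1 (Gnl3, Habp4, Heatr3, Phlda3 and Rrn3), 2 without flox/flox replicate 2 (Phlda3 and Rcl1), and Phlda3 alone without any other 1 library.

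Several lists of markers of other liver cells moved with the labels and stand beside every comparison above. Under the deposited scaling 5.95% of all features were called higher and 6.86% lower. Of 10 macrophage markers, limma called Cd68, Csf1r and Marco higher and all 10 estimates were above 0 (median 1.34). Of 8 stellate cell markers it called 5 higher (median 0.74). Of 6 proliferation genes 4 were tested, and it called Mki67, Cdk1 and Mcm2 higher. Both lymphocyte markers tested, Ptprc and Nkg7, were called higher, with 8 others under the filter. Of 6 bile duct markers 2 were tested, and it called Sox9 higher. Summed over the 6, the groups overlapped, at 19.2, 29.1 and 20.2 FPKM in flox/flox and 57.4, 27.4 and 41.7 in HKO. None of 8 endothelial and none of 5 red cell markers was called by limma, with 1 at an unadjusted p under 0.05 in each list. Of 9 hepatocyte markers Serpina1c fell (median -0.54). Of these 15 marker calls 12 remained without flox/flox replicate 1, 6 without flox/flox replicate 2, 5 without HKO replicate 3 and 0 without any other 1 library. The part of these cells in the ribosomal protein values was not tested.

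**Figure D5:**
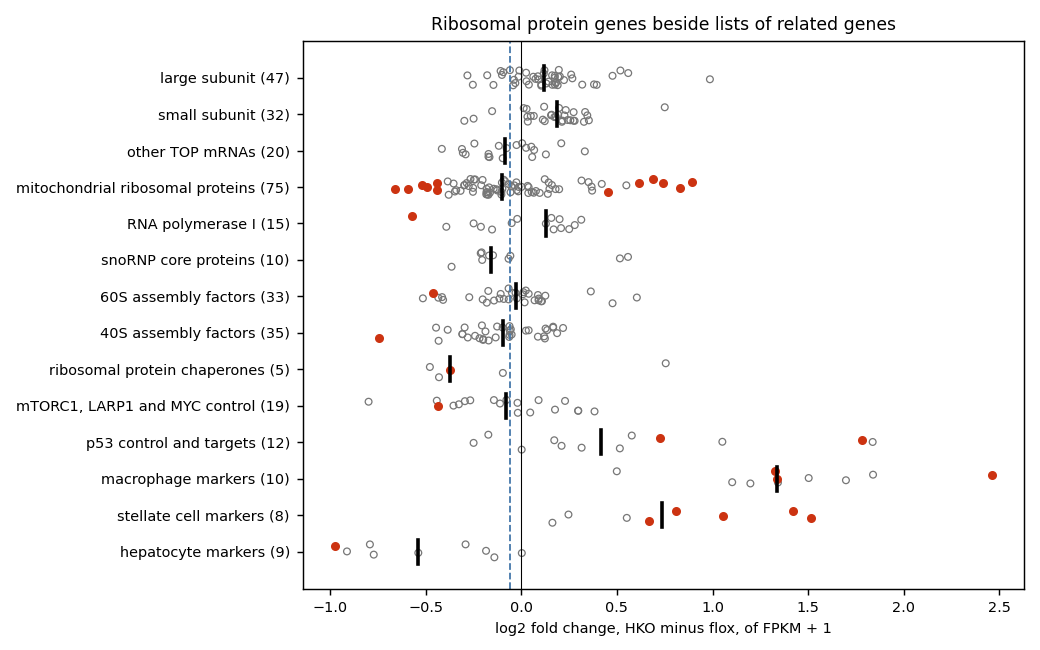
Log2 fold change (HKO minus flox/flox, log2 of FPKM + 1) of every tested gene in the 2 subunits and in 12 further lists, with the number tested in parentheses; red points passed limma at an adjusted p under 0.05, open points did not, black bars are medians and the dashed line is the median of all features (-0.06). No cytosolic ribosomal protein gene is red, while the macrophage and stellate cell lists have medians of 1.34 and 0.74.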

How the data were processed

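Poly(A) RNA of 6 liver libraries was measured. The authors deposited 1 table of FPKM per gene. HISAT2 2.0.5, featureCounts 1.5.0-p3, DESeq2 1.16.1 and GRCm38.p6 are named in the submitters' processing notes, while the sources used here do not give strandedness. Whole reads rebuilt from FPKM and gene length came out whole within 0.01 read. They show that the deposited FPKM were divided by median-of-ratios size factors in place of library totals.

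Features averaging 1 FPKM or more (11086) were tested on log2(FPKM + 1) with limma 3.58.1 (R 4.3.3), a variance trend and Benjamini-Hochberg adjustment over all of them, two-sided at 0.05, without a block. A fold change on this scale understates that of low genes. Python 3.11.15 with pandas 2.3.3 and numpy 2.4.6 made the summaries, and matplotlib 3.10.9 the plots. The fit was tested on simulated data. Members and gene lists were chosen with earlier results of these data known. Named genes were the 4 largest rises and falls and the 3 most abundant of each subunit, the hand-listed functional groups, and, in other lists, up to 4 genes past the threshold or the most abundant. Rpl39, Rpl24, Rpl10a, the remaining tunnel and peptidyl transferase genes, Rps28 and the copies were chosen after their values were seen. Promoters are from RefSeq. Alternatives covered pseudocount, filter, scaling, trend, voom, gene length, biotype, block and each library left out. A listed gene is not reported here.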

Additional observations from a re-analysis of the deposited data

How the results depend on the processing

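In 22 alternative settings no member was called lower by limma, where 0.12% (without flox/flox replicate 3) to 12.2% (5 FPKM filter) of all features were. Members called higher (large and small subunit, 0 and 0 as reported) were 1 and 0 with a 5 FPKM filter, 1 and 1 with median-of-ratios scaling of the tested features, with voom and with protein-coding features only, 3 and 1 with the length trend removed, 9 and 5 with quantile normalization, 25 and 16 with a common sum without the 20 highest features, and 21 and 15 with library totals. The shares of all features called higher were 4.60%, then 6.77%, 6.53% and 8.08%, then 7.12%, 5.86%, 21.3% and 19.2%, in the same order. Leaving out 1 library gave 0 to 3 and 0 to 1, where 0.15% (without flox/flox replicate 3) to 6.48% (without flox/flox replicate 1) of all features were called higher. Only leaving out flox/flox replicate 1 gave counts above 0. 3 alternatives were added after the data were seen: scaling to the ribosomal protein genes gave 1 and 1, library totals without flox/flox replicate 1 gave 16 and 18 (13.9% of all features higher), and adding the reads of copies called none.

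Some medians moved by more than the pooled within-group SD of the library medians, 0.175 (large) and 0.204 (small) on the log2 scale. That SD is no standard error of a median fold change. The medians that did so became 0.44 and 0.57 (quantile), 0.52 and 0.58 (common sum, and library totals), and 0.57 and 0.68 (library totals without flox/flox replicate 1). Signs turned as follows. With quantile normalization Rpl11 was 0.26, Rpl18 0.11, Rps2 0.38 and Rps27l 0.21. With the common sum, library totals, and totals without flox/flox replicate 1 in that order, Rpl11 was 0.30, 0.30 and 0.39, Rpl18 0.21, 0.22 and 0.32, Rpl21 0.22, 0.22 and 0.16, Rpl35a 0.13, 0.14 and 0.17, Rps2 0.25, 0.25 and 0.36, Rps27a 0.094, 0.10 and 0.27, and Rps27l 0.15, 0.15 and 0.12. Rpl7l1 was 0.10 in the first 2. Scaled to the ribosomal protein genes, Rpl22l1 was -0.014, Rpl4 -0.11, Rpl5 -0.047, Rps3a1 -0.10 and Rps6 -0.025, and with copies added Rpl21 was 0.022. Leaving out 1 library gave -0.18 to 0.058 for Rpl11, -0.30 to 0.030 for Rps2, -0.042 to 0.13 for Rpl4, -0.063 to 0.19 for Rps3a1 and -0.043 to 0.27 for Rpl22l1. The cause was not tested, beyond the construction of each scaling.

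With the replicate number as a block, 0 members of either subunit were called, with medians of 0.12 and 0.19, and 199 of all features against 1421. Deviations of same-numbered libraries correlated at -0.003, -0.10 and -0.07, and those of different-numbered libraries at -0.035 to 0.092. What same-numbered libraries share beyond the number is not stated, and these correlations cannot decide it. Over all features, leaving out 1 library gave 30 (without flox/flox replicate 3) to 1454 calls (without flox/flox replicate 1). Of 11 calls in the related lists 1 to 5 remained. The number of libraries, 3 a group, limits precision.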

Other observations

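Mitochondrial ribosomal proteins, which serve the separate ribosomes of mitochondria, gave calls in both directions. Of 75 tested genes, limma called 6 higher in HKO and 6 lower, near the 5.95% and 6.86% of all features, with 27 estimates above and 48 below 0 and a median of -0.10. The largest rises were Mrpl43 (25.9 ± 3.23 to 49.5 ± 11.4 FPKM, SD, n = 3, log2 fold change 0.89, limma adjusted p = 0.0322) and Mrps2 (11.04 ± 1.53 to 20.6 ± 4.65 FPKM, 0.83, limma adjusted p = 0.0357). The largest falls were Mrpl41 (26.9 ± 3.43 to 16.7 ± 2.61 FPKM, -0.66, limma adjusted p = 0.0399) and Mrpl2 (43.8 ± 4.99 to 28.5 ± 1.78 FPKM, -0.60, limma adjusted p = 0.0327), all 4 chosen after their values were seen. Of the 12 calls, 5 remained without flox/flox replicate 1 (Mrpl2, Mrpl38, Mrpl43, Mrpl50 and Mrps6) and 0 without any other 1 library. Scaled to library totals, 17 were called higher and none lower, beside 19.2% of all features called higher. The difference between the mitochondrial and cytosolic genes was not tested.

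The table also holds 291 features named as copies of the cytosolic genes, of which 62 passed the filter. Limma called 0 of them, with 3 at an unadjusted p under 0.05, beside 12.8% and 33.8% of all features, and their median was 0.05. With library totals 9 of the 62 were called higher and their median was 0.37, beside 19.2% called higher and a median of 0.26 over all features.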
